A study of Mus musculus with 77 samples.

Results

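The mRNA repertoire bound by Argonaute 2 (AGO2) in a forebrain region, the bed nucleus of stria terminalis (BNST), of control mice was compared with the mRNA repertoire of the blood of control mice. Only the B6 control samples of the mRNA tables were taken, which gave 10 samples of the 77 in the series. The strain B6 is written C57BL/6Crl in the sample labels and C57BL/6NCrl in the paper of the study. Genes were matched on their Ensembl identifiers. Of the 16587 genes kept in the AGO2 table and the 13084 kept in the blood table, 11363 were shared, 5224 were kept in the AGO2 table only and 1721 in the blood table only, so that 18308 genes were kept in either.

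The study exposed mice to chronic social defeat stress, a daily confrontation with an aggressor, and sorted the defeated animals into susceptible and resilient ones by their social avoidance. The controls used here were undefeated males from Charles River Laboratories that were 8 weeks old at dissection and were killed in the morning. Dissection took place 6 to 8 days after the end of the defeat period. In the paper's protocol, controls got a new neighbour behind a divider every day and also took the social avoidance test. The AGO2 group held 5 libraries, each from BNST tissue pooled from 3 mice, in which RNA was recovered by immunoprecipitation of AGO2 and sequenced with a stranded mRNA kit. The blood group held 5 libraries, each from 1 mouse, in which ribosomal and globin RNA were depleted and a stranded total RNA kit was used. The AGO2 pools came from other mice than the rest of the study, and its methods name an adjustment of the AGO2 mRNA data for cohort number. The cohort of each pool was not used here, so its part in differences between pools, such as those of pools 4 and 5 below, was not tested. Tissue, AGO2 capture, pooling, cohort, library kit and the low-count filter of each table all changed together between the groups and cannot be told apart. No unbound BNST RNA entered the comparison. Since both groups were bulk samples, fewer cells of a type and less RNA per cell cannot be told apart either.

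AGO2 is the protein that carries a microRNA (miRNA) and holds it against matching sites of an mRNA, mostly in the 3′ untranslated region (UTR), which lowers the stability or translation of that mRNA. RNA recovered with AGO2 is therefore meant as a sample of the transcripts a tissue expresses, weighted by their contact with this complex. No control immunoprecipitation entered the comparison, so recovery of RNA that AGO2 did not hold was not tested. The BNST is a cluster of largely GABAergic neurons of the extended amygdala that is known for its part in anxiety and the stress response. Blood RNA comes from immature red cells that still hold transcripts, from platelets and from white cells.

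The AGO2 libraries held 6119120, 5092339, 4496314, 5035315 and 6162932 reads in genes, recovered from the deposited values. The blood libraries held 13814163, 11637152, 14253655, 14745897 and 14969801, and every AGO2 library was thus shallower than every blood library. The 10 highest genes took between 10% and 11.5% of the reads in AGO2 libraries and between 28.4% and 31.9% in blood libraries. In all 5 AGO2 libraries the highest gene was Gm42418. In blood it was Alas2, which makes the enzyme of the first step of heme synthesis in red cells, in 4 libraries and the mitochondrial ribosomal RNA mt-Rnr2 in the other one.

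Because both tables were normalized separately, each gene was given a percentile rank within its own library, from 0 for the lowest to 100 for the highest of the 11363 shared genes. Ranks of libraries of the same group were close, with a Spearman coefficient over genes between 0.982 and 0.991 in AGO2 and between 0.967 and 0.984 in blood. Between the groups it ran from 0.354 to 0.401 over the 25 pairs of libraries. Genes are not independent replicates and these coefficients are descriptions. Of the 100 highest shared genes of each group, 5 were common to both. Of the 500 highest, 67 were common (13.4% of each list), and of the 1000 highest, 220 (22.0% of each list).

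With limma on percentile ranks, a gene was called when its Benjamini-Hochberg adjusted p was under 0.05 and the group means differed by at least 20 percentile points. By this rule 2586 genes ranked higher in AGO2 mRNA (22.8% of the shared genes) and 2572 ranked higher in blood mRNA (22.6%). The other 6205 were not called. Both shares are the background for every count of called members below. For members kept in 1 table only, the background is 5224 (AGO2) and 1721 (blood) of the 18308 genes kept in either. The filter asked for fewer samples in the AGO2 table (3) than in the blood table (6). The size of the difference set the call far more than the p did, as 9652 genes passed the adjusted p at any size and only 2 genes past 20 points failed it. The groups of 5 did not overlap for 8656 genes, which is 76.2% of those tested, so a lack of overlap is the background of this comparison. The median difference over all shared genes, AGO2 minus blood, was -0.47 points with quartiles of -17.7 and 17.8. The median SD of a gene between libraries was 2.5 points in AGO2 and 3.2 points in blood. A gene whose groups do not overlap has an exact permutation p of 0.00794, the smallest that 5 against 5 allows. When genes were ranked among all those kept in their own table instead, the shared genes shifted by a median of 4.0 points towards AGO2, and 61.1% of the calls were on the AGO2 side (3062 against 1952) in place of 50.1%. Direction below is therefore relative to the other shared genes.

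**Figure D1:**
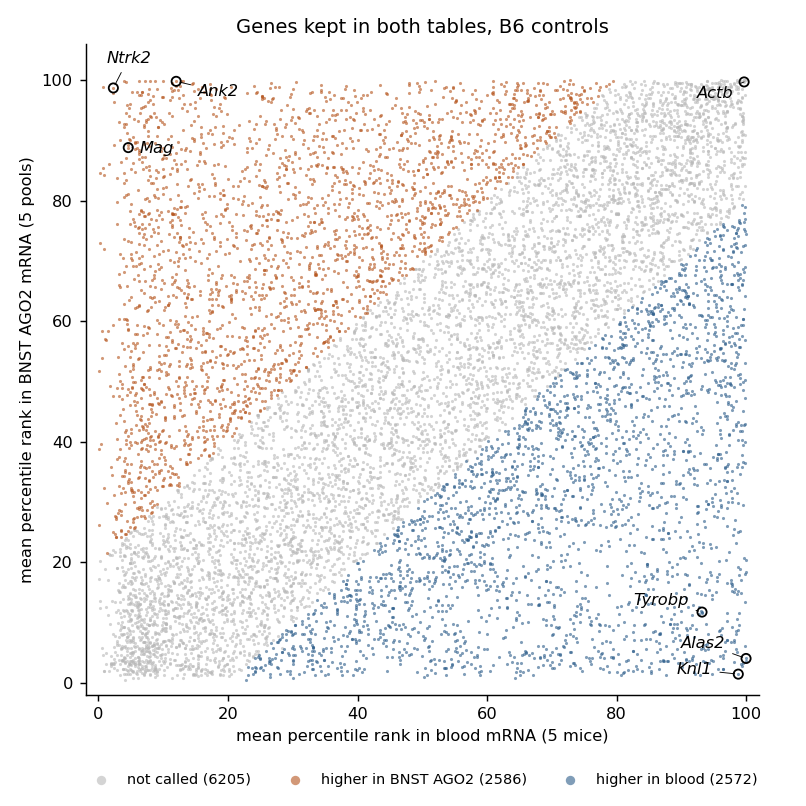
Mean percentile rank of the 11363 shared genes in blood mRNA (x axis) against BNST AGO2 mRNA (y axis) of the B6 controls, 5 libraries in each group, with the called genes in colour (orange higher in AGO2, blue higher in blood). The 2586 genes higher in AGO2 and the 2572 higher in blood fill opposite corners, and 284 genes lie at or above percentile 90 in both.

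Among the genes that ranked furthest above blood in AGO2 mRNA were Snhg14, Ntrk2 and Slc1a2. Ntrk2, the receptor of the neurotrophin BDNF (chromosome 13), stood at percentiles 98.7, 98.6, 98.9, 98.4 and 98.7 in the AGO2 libraries and at 0.8, 0.7, 2.7, 5.3 and 1.9 in the blood libraries. This is a difference of 96.4 points (SE 1.13, limma adjusted p = 5.23e-14), and the groups lay at opposite ends of the scale. Slc1a2, the main glutamate transporter of astrocytes, was at 99.9 in all 5 AGO2 libraries and at 0.8, 10.4, 0.6, 7.5 and 0.1 in blood, a difference of 96.0 points (SE 2.02). It had 0 reads in a blood library. Sv2a, a protein of synaptic vesicles, differed by 95.7 points, and Cplx2, which clamps vesicle fusion, by 95.4 points. Further large differences on this side were those of Napb, a fusion cofactor (93.8 points), the microtubule-binding genes Map1a (93.6) and Map1b (92.6), the transcription factor Zfhx2 (92.2) and Snhg14. The last, a long non-coding RNA, had the largest difference of all, 98.2 points. Its gene lies antisense to Ube3a and hosts many small nucleolar RNAs, and since the strand setting of the read counting is not given in the sources used here, its level is uncertain.

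Knl1, Lyz2, Ube2l6 and Alas2 were among the genes that ranked furthest above AGO2 in blood mRNA. Alas2 was at percentiles 2.8, 3.2, 6.4, 3.4 and 4.0 in AGO2 and at 100 in all 5 blood libraries, a difference of -96.0 points (SE 1.02, limma adjusted p = 4.6e-14). Knl1, which ties chromosomes to the spindle at the kinetochore, was at 3.6, 0.3, 2.0, 0.6 and 0.5 in AGO2 and at 99.0, 98.2, 98.8, 99.1 and 98.8 in blood. Its difference of -97.4 points was the lowest of all shared genes. Lyz2, the lysozyme of phagocytes, differed by -96.6 points and Ube2l6, an enzyme that attaches the interferon-induced modifier ISG15, by -96.4 points. The remaining large differences were those of Ctla2a (-96.3), the fatty acid receptor Cd36 (-96.2), the granule proteoglycan Srgn (-94.8), the leukocyte receptor Cd84 (-94.2), the clotting factor subunit F13a1 (-94.2) and the adult beta globin Hbb-bt (-93.8). In no gene named here did any AGO2 library reach the values of any blood library or the reverse.

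**Figure D2:**
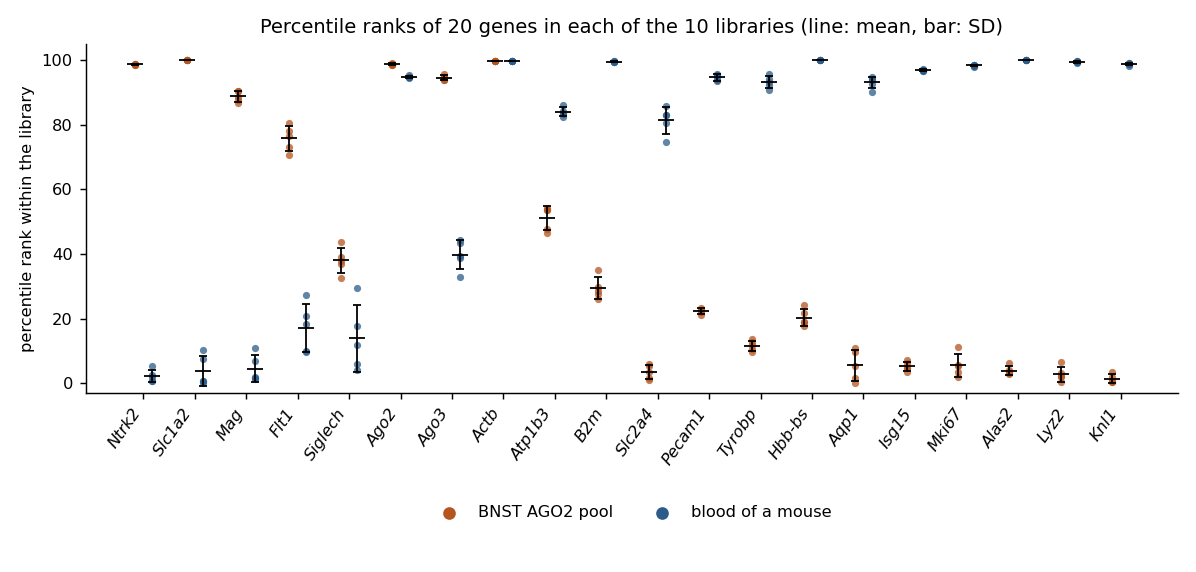
Percentile rank of selected genes in each of the 5 BNST AGO2 libraries and each of the 5 blood libraries, one point per library, with the mean as a line and 1 SD as a bar. Ntrk2 and Slc1a2 sit at or above 98.4 in AGO2 and at or below 10.4 in blood, Alas2 shows the reverse, and Actb is level.

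Defining markers of neurons were present in the AGO2 libraries. All 32 genes of the list of neuronal identity and synapse were kept in the AGO2 table and 25 of them were kept there only. Of the 7 shared ones, 5 ranked higher in AGO2 and none in blood, with a median difference of 71.4 points. Rab3a, a small GTPase of synaptic vesicles, ranked at 84.1 ± 2.46 (SD, n = 5) in AGO2 and 10.1 ± 4.41 in blood. Camk2b, a calcium-dependent kinase of synapses, ranked at 98.4 against 12.3. Thy1 (12.4 points) and Nsf (18.7 points), which other cells also express, were not called. Summed over its members, the list took 1.39% ± 0.0903 of the reads in AGO2 and 0.00832% ± 0.00063 in blood.

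Transmitter genes followed the same course. Of 22 genes of GABA and glutamate transmission, 17 were kept in the AGO2 table only, among them Gad2, one of the enzymes that make GABA, and Gria2, a subunit of AMPA receptors. All 5 shared members ranked higher in AGO2, from Homer1 (26.7 points) to the AMPA receptor subunit Gria3 (90.1 points). Gad1, the other GABA-synthesizing enzyme, stood at 97.3 in AGO2 and at 67.4 in blood. Of 27 neuropeptides and receptors that mark the BNST and its neighbours, 22 were kept in the AGO2 table only, led by the enkephalin precursor Penk at a mean log2 CPM of 7.29, and Avp was at 0 reads in a library. The shared members Tac2, a tachykinin precursor (12.2 points), and Esr1, an estrogen receptor (4.1 points), were not called, and Tac2 had 0 reads in a blood library. Genes of striatal projection neurons, which neighbour the BNST, were also high: 10 of 15 were kept in the AGO2 table only, including Ppp1r1b and the dopamine receptors Drd1 and Drd2, and 4 of the 5 shared ones ranked higher, led by the phosphodiesterase Pde10a (91.2 points). They took between 0.339% and 0.548% of the reads of an AGO2 library. The part of striatal tissue in the dissected samples was not tested.

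Glial genes were more mixed. Astrocyte genes were mostly shared, 13 of 16, and 9 of these ranked higher in AGO2 and none in blood (median 69.8 points). The water channel Aqp4 differed by 73.1 points and the gap junction gene Gja1 by 81.1 points. Glul, Apoe and Clu, which blood cells also expressed at percentile 89.2 or above, were not called. Of 18 genes of myelin and oligodendrocytes, 9 were shared. Of these, 5 ranked higher in AGO2, beside 22.8% of all shared genes, such as the myelin glycoprotein Mag (84.2 points). Mbp, the myelin basic protein gene, was at 99.6 in AGO2 and still at 86.3 in blood and did not pass 20 points. Oligodendrocyte factors Olig1, Olig2 and Sox10 were kept in the AGO2 table only.

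Of the 16 shared genes of the list that defines microglia, the macrophages of the brain, 10 were not called. Another 5 ranked higher in blood, beside 22.6% of all shared genes, and 1, Siglech (24.1 points), ranked higher in AGO2. The signalling adaptor Tyrobp was at 11.7 ± 1.58 in AGO2 and 93.2 ± 1.83 in blood, and the purine receptor P2ry12, which platelets also carry, at 31.5 ± 2.85 and 96.9 ± 1.8. Only Sall1 and Tmem119 were kept in the AGO2 table alone. The median difference of the list, -9.1 points, was -0.3 points with ranks among all genes of each table and -43.9 points among genes whose mean log2 CPM reached 3. The list took 0.0353% ± 0.00238 of the AGO2 reads, against 0.0904% ± 0.0201 of the blood reads.

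Vessel genes were mixed. Of 15 shared genes of brain endothelium and mural cells, 8 were not called and 6 ranked higher in AGO2, beside 22.8% of all shared genes, among them Flt1, a receptor of vascular growth factor (58.6 points), and Rgs5 (48.3 points) and Pdgfrb (47.2 points), which mark pericytes. Pecam1, an adhesion protein that platelets and leukocytes share with endothelium, was the member called in the other direction (-72.3 points). Choroid plexus genes were present in AGO2, with 9 of 14 kept there only, including Ttr at a mean log2 CPM of 5.02. Of the 4 shared members 1 was called in each direction, a share near the 22.8% and 22.6% of all shared genes. Enpp2, a secreted lysophospholipase, differed by 82.0 points (88.4 ± 3.96 against 6.3 ± 4.59) and had 0 reads in a blood library. Aqp1, a water channel of both choroid plexus and red cells, differed by -87.5 points and had 0 reads in an AGO2 library, and Kcnj13 also reached 0 there.

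Erythroid genes took a large part of the blood reads. The 40 genes of this list took 22.1% ± 1.9 of the blood reads, of which Alas2 alone held 9.75%, and 0.16% ± 0.00731 of the AGO2 reads, where the most abundant member was Add2, an adducin that neurons share. Of 26 shared members 19 ranked higher in blood and none in AGO2, and 13 were kept in the blood table only, including Slc4a1 and Epb42 of the red cell membrane. Hbb-bs, the most abundant beta globin gene left after globin depletion, was at 19.1, 24.1, 17.8, 21.7 and 19.1 in AGO2 and at 100 in every blood library, a difference of -79.6 points (SE 1.3). Hbb-bs and Hbb-bt, and likewise Hba-a1 and Hba-a2, are near-identical copies, and how their reads were divided is uncertain. Hbb-bt (6.1 ± 2.65), Hba-a1 (8.7 ± 1.59) and Hba-a2 (7.1 ± 2.08) were lower in AGO2 than Hbb-bs. The share of blood left in the dissected tissue was not tested. Among the other enzymes of heme synthesis, Cpox (2.4 points) and Ppox (-8.3 points) were not called.

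Most white cell genes were kept in the blood table only, though T cell and monocyte genes were mixed. All 16 genes of natural killer cells and cytotoxic granules were kept in the blood table only. So were 16 of 21 neutrophil genes, with S100a9 highest (mean log2 CPM of 9.62), 15 of 18 B cell genes, 12 of 20 T cell genes and 8 of 18 monocyte genes. Of the shared members, 4 of 8 T cell genes and 5 of 10 monocyte genes ranked higher in blood, beside 22.6% of all shared genes. Higher in AGO2 was 1 of each list, beside 22.8% of all shared genes, and the other 3 and 4 were not called. Shared members called higher in blood included Mmp9 of neutrophils (-79.7 points), Ighm of B cells (-89.4 points) and Trbc2, a constant segment of the T cell receptor (-86.3 points). The median of the 3 shared B cell genes was -86.0 points, and -26.1 points when only protein-coding genes were ranked, since Ighm is annotated as an immunoglobulin segment. Exceptions were Bcl11b and Ebf1, and Nr4a1 of the monocyte list, described below. Bcl11b, a factor of T cells and of striatal neurons, ranked at 98.7 ± 0.66 in AGO2 and 67.3 ± 6.09 in blood (31.4 points). Ebf1, which specifies B cells and is also made in brain, differed by 34.2 points, a call that was lost on quantile-normalized values. The summed T cell list was therefore nearly as large in AGO2 (0.0591% ± 0.0107 of reads) as in blood (0.0645% ± 0.0109), with 0.046% from Bcl11b, while Il7r and Trbc2 reached 0 reads in an AGO2 library.

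Platelet genes took 0.541% ± 0.217 of the blood reads, between 0.27% and 0.817% of single libraries, led by the chemokine Ppbp. Of 18 genes 13 were kept in the blood table only and 4 of the 5 shared ones ranked higher in blood, such as the integrin Itga2b (-90.4 points). The fifth, Nrgn, is also a postsynaptic protein and was at 92.6 in AGO2 and 78 in blood, a difference of 14.7 points that was not called.

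**Figure D3:**
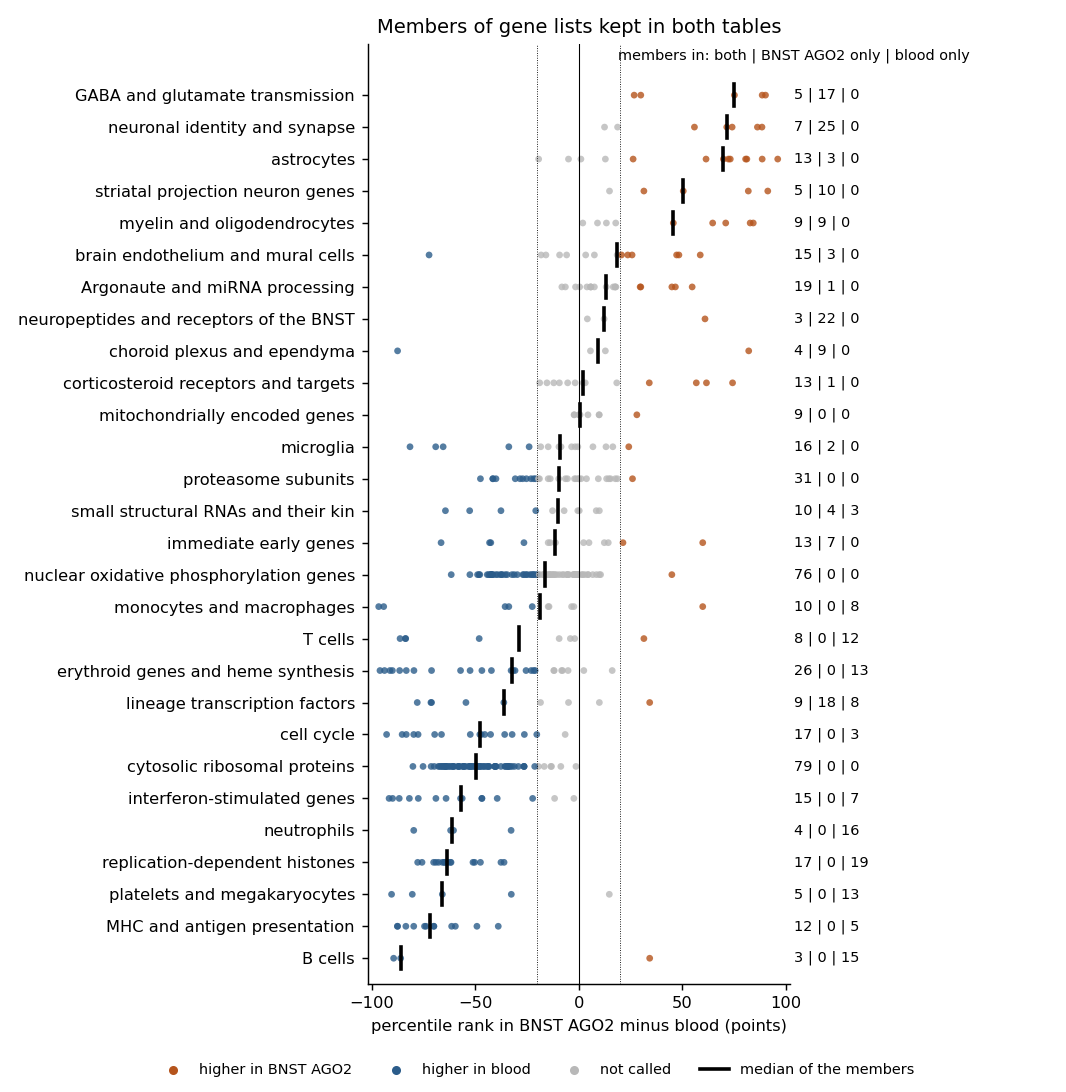
Difference of mean percentile rank, BNST AGO2 minus blood, for every shared member of each gene list (points) with the median of the list marked, dotted lines at the minimum of 20 points, and the numbers of members kept in both tables, in AGO2 only and in blood only at the right. The medians run from 75.1 points for GABA and glutamate transmission down to -86.0 points for B cell genes.

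Most interferon-stimulated genes and all shared genes of antigen presentation ranked higher in blood. Of 15 shared interferon genes 13 ranked higher in blood and none in AGO2, with a median of -57.1 points, and 7 more were kept in the blood table only. Stat2, a transcription factor of the interferon response (65.8 in AGO2 against 68.2 in blood), and Mx2 (10.2 against 21.8) were not called. Isg15 differed by -91.6 points. Rsad2, an antiviral enzyme, held 0.921% of the blood reads and stood at 99.9 in every blood library, against 17.4, 12.0, 8.6, 41.8 and 10.7 in the AGO2 libraries, where the fourth pool was the highest. All 12 shared genes of MHC and antigen presentation ranked higher in blood (median -71.9 points), among them B2m, the light chain of MHC class I, at 29.5 ± 3.43 and 99.5 ± 0.1, and the immunoproteasome subunit Psmb8 (-87.6 points). The MHC class II genes H2-Aa, H2-Eb1, H2-Ab1 and Cd74 were kept in the blood table only.

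**Figure D4:**
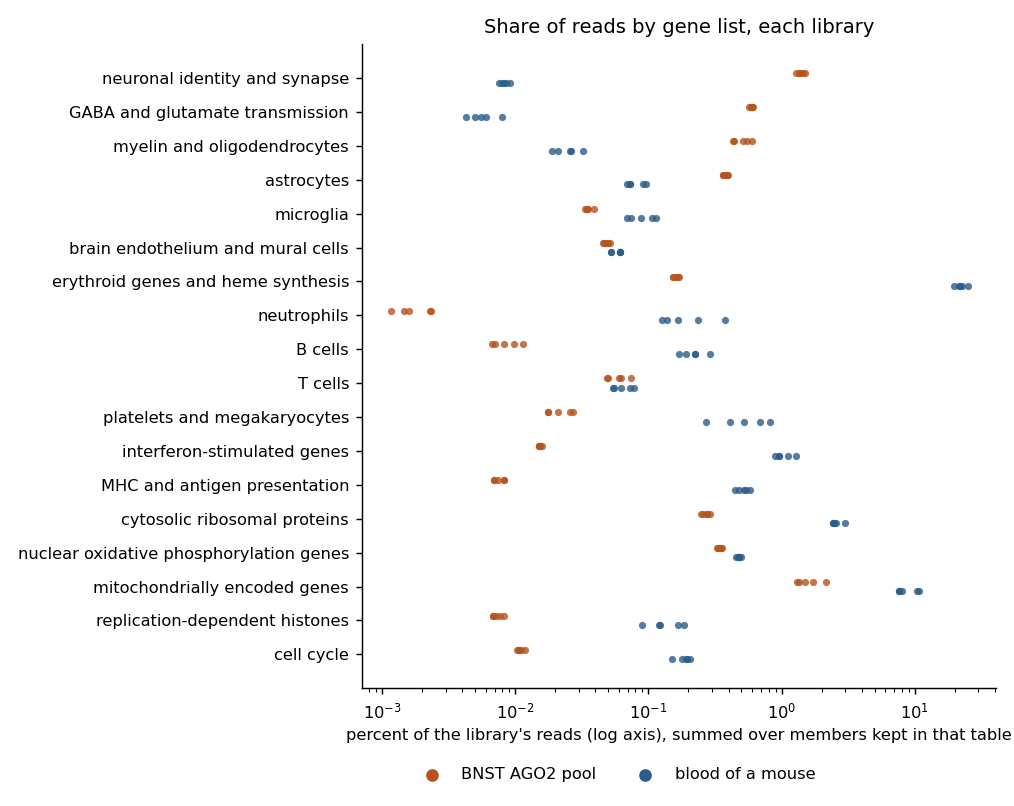
Percent of the recovered reads of each library taken by gene lists in BNST AGO2 and blood mRNA, one point per library on a logarithmic axis. Erythroid genes take between 19.7% and 24.9% of blood reads, and neuronal genes between 1.28% and 1.5% of AGO2 reads.

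The machinery that every cell needs was not evenly placed either. All 79 genes of cytosolic ribosomal proteins were shared, and 73 ranked higher in blood and none in AGO2 (median -49.7 points). They took 0.269% ± 0.0165 of the reads in AGO2 and 2.58% ± 0.233 in blood. Rpl39, of the large subunit, differed by -75.2 points (23.2 ± 3.92 against 98.4 ± 0.08), while Rpl13a (-1.4 points) and Rpl10a (-8.7 points) were not called. The median was -22.0 points when genes were ranked by reads per kilobase of exon. Many ribosomal protein genes have near-identical pseudogenes, which makes single values uncertain.

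Nuclear genes of oxidative phosphorylation moved less. All 76 were shared, 33 ranked higher in blood, beside 22.6% of all shared genes, and 1 in AGO2, with a median of -16.4 points that shrank to -3.6 points with ranks per kilobase. Ndufa1, a subunit of complex I, differed by -61.6 points but by -10.4 points per kilobase, where it was not called. Atp5g1, which encodes the rotor ring of ATP synthase, was the member called in the other direction (44.9 points, 69.7 ± 3.01 against 24.8 ± 2.51). Of 31 proteasome subunits 19 were not called. Another 11 ranked higher in blood, beside 22.6% of all shared genes, and Psmc4 ranked higher in AGO2 (25.9 points, not called on quantile-normalized values). Their median of -9.7 points was -2.8 points with ranks per kilobase.

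Transcripts made inside mitochondria were near the top of both groups. Of 15 genes in the list 9 were shared, all but mt-Nd6 at or above percentile 89.4 in both groups, and their median difference was 0.6 points. Only mt-Nd6, the protein gene of the light strand, was called (28 points). It was not called with ranks per kilobase (7.3 points), on quantile-normalized values (log2 difference of 1.74) or in the susceptible samples (17.2 points). On quantile-normalized values mt-Nd2 (log2 difference of 3.11) and mt-Rnr1 (2.44) were called higher in AGO2. Their summed reads differed nonetheless, at 1.6% ± 0.351 of AGO2 libraries and 8.85% ± 1.56 of blood libraries, of which mt-Rnr2 held 7.86%.

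Cell division genes ranked low in AGO2. Of 17 shared cell cycle genes 16 ranked higher in blood (median -47.8 points), led by Mki67 at -92.8 points, and Plk1 was low in both groups (2.2 and 8.9). The 17 shared replication-dependent histone genes all ranked higher in blood (median -63.8 points) and 19 more were kept in the blood table only. Their messages end in a stem-loop rather than a poly(A) tail, and the kits differed between the groups, so tissue and kit cannot be told apart for them. Individual histone genes are near-identical copies and their values are uncertain. Among small structural RNAs the same holds: Rpph1, the RNA of RNase P, differed by -52.7 points and Rmrp by -37.6 points, but by -0.7 and -0.2 points with ranks per kilobase. By annotation class, 26 of 62 shared small nucleolar RNAs and 8 of 11 small Cajal body RNAs ranked higher in blood, beside 22.6% of all shared genes, and none of either in AGO2. Among genes kept in 1 table only, 146 small nucleolar RNAs were in the AGO2 table and 9 in the blood table.

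Of 19 shared genes of the miRNA pathway itself 5 ranked higher in AGO2, a share near the 22.8% of all shared genes, and none ranked higher in blood, with a median of 13.2 points. The Argonaute genes were at 93.4 ± 0.77 against 48.5 ± 1.62 for Ago1, at 94.6 ± 0.73 against 39.8 ± 4.53 for Ago3 and at 82.9 against 36.4 for Ago4. Ago2 was high in both, at 98.8, 98.4, 98.5, 98.9 and 99.0 in AGO2 libraries and at 95.4, 94.7, 94.8, 94.4 and 94.9 in blood. Its difference of 3.9 points (SE 0.88, limma adjusted p = 0.00156) was under 20 points and not called, though the groups did not overlap. Tnrc6c, a scaffold that links Argonaute to decay enzymes, differed by 29.9 points and the helicase Mov10 by 29.6 points. Together the list took 0.511% ± 0.018 of AGO2 reads and 0.119% ± 0.00268 of blood reads. Lin28b, which blocks let-7 maturation, was kept in the AGO2 table only.

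Immediate early genes are induced within minutes of stimulation in neurons and leukocytes alike. Of 13 shared members 7 were not called, 4 ranked higher in blood and 2 in AGO2, beside 22.6% and 22.8% of all shared genes. Klf2 (-66.5 points), Jund (-43.1), Junb (-42.5) and Btg2 (-26.5) ranked higher in blood. Nr4a1 ranked higher in AGO2, at 61.7, 60.9, 56.7, 93.1 and 90.9 against 12.4, 18.6, 10.6, 5.3 and 17.6 in blood (59.8 points, SE 7.14, limma adjusted p = 8.34e-06). Pools 4 and 5 stood well above the other 3 in this gene, and it was still called without either of them. Fosl2 (21.3 points) lost its call without AGO2 pool 4, at 17.4 points, without AGO2 pool 5, at 18 points, and without blood library 2, at 20 points. It was also not called with ranks per kilobase (17.2 points), on quantile-normalized values (log2 difference of 1.22), or in the resilient (16.9 points) and susceptible (9.3 points) samples. Egr1, Arc and 5 further members of the 20 were kept in the AGO2 table only, beside 5224 of the 18308 genes kept in either table.

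Of 13 shared corticosteroid receptors and targets 4 ranked higher in AGO2, beside 22.8% of all shared genes, and none ranked higher in blood. Their median was 2.1 points and 9 were not called. Nr3c1, the glucocorticoid receptor, was at 92.7 in AGO2 and 90.5 in blood (2.1 points, not called), whereas Nr3c2, the mineralocorticoid receptor, was at 70.7 and 14.1 (56.7 points). The clock gene Per1, which glucocorticoids induce, was at 89.2, 89.7, 90, 96.8 and 95.1 in AGO2 and at 20.4, 14.9, 18.1, 13.9 and 22.7 in blood, a difference of 74.2 points (SE 2.13). Fkbp5 (-15.4 points) and Tsc22d3 (-12.1 points), further targets, were not called.

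Lineage transcription factors split by table. Of 36, 18 were kept in the AGO2 table only, among them Myt1l, Meis2, Dlx5 and Dlx6 of forebrain neurons, and 8 in the blood table only. Of 9 shared ones 5 ranked higher in blood, beside 22.6% of all shared genes, led by Ikzf1 (-78.0 points), Runx1 (-71.4) and Tal1 (-71.1) of blood cells. Ebf1 was the member called in the other direction, beside 22.8% of all shared genes.

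Red cells and neurons use different members of several gene families, and these showed the contrast within a single function. Among ankyrins, which tie membrane proteins to the spectrin skeleton, Ank1 of red cells was not called (85.9 against 93.8), while Ank2 (87.8 points) and Ank3 (69.1 points) ranked higher in AGO2. Ank2 was at 99.8, 99.8, 99.8, 99.7 and 99.8 in AGO2 and at 10.8, 20, 16.7, 10.6 and 1.9 in blood. Among spectrins, Sptbn4 ranked higher in AGO2 (87.0 points), and Sptan1, Sptbn1 and Sptb were at or above 91.2 in both groups. On quantile-normalized values Sptan1 (log2 difference of 2.78) and Sptbn1 (3.74) were called higher in AGO2. Epb41l1 differed by 83.5 points, whereas its red cell relative Epb41, at 88.0 in AGO2 and 99.9 in blood, did not pass 20 points (-11.9 points). With ranks per kilobase both Epb41 (-44.2 points) and Ank1 (-25.2 points) were called higher in blood, and so was Epb41 on quantile-normalized values, with a log2 difference of -4.78.

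Members of transporter families differed too. The sodium pump subunits Atp1b2 (88.8 points) and Atp1b1 (44.0) ranked higher in AGO2, and Atp1b3 ranked higher in blood (-32.9 points, but -18.7 points and not called with ranks per kilobase). Among relatives of the red cell anion exchanger Slc4a1, which was kept in the blood table only, 4 of 5 shared members ranked higher in AGO2, led by the bicarbonate transporter Slc4a4 (88.5 points). Slc4a2 (31.1 points), another of the 4, was not called on quantile-normalized values. Of 5 glucose transporters, Slc2a8 (38.4 points) and Slc2a1 (25.7 points, not called on quantile-normalized values) ranked higher in AGO2 and Slc2a4 in blood (-77.8 points), while Slc2a3 of neurons was high in both groups (-0.2 points) and Slc2a6 was not called (-2.5 points).

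Enzyme families gave a few more contrasts. Aldoc (69.8 points), Ldhb (58.4) and Pfkm (58.0) ranked higher in AGO2, while their relatives Aldoa (2.6), Ldha (-11.0) and Pfkl (11.9) were not called. The hexokinases Hk2 (-34 points) and Hk3 (-47.3) and the enolase Eno3 (-31.8) ranked higher in blood, while Hk1 (3.4) and Eno1 (6.6) were not called. Of 6 peroxiredoxins, which remove hydrogen peroxide, 5 ranked higher in blood, among them Prdx2, an abundant red cell protein (-40.3 points), and the median of -34.9 points was -18.7 points with ranks per kilobase. Prdx3 (-9.0 points) and Prdx5 (-12.6 points) were not called with ranks per kilobase, nor Prdx4 (-18.0 points) with ranks among all genes of each table.

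**Figure D5:**
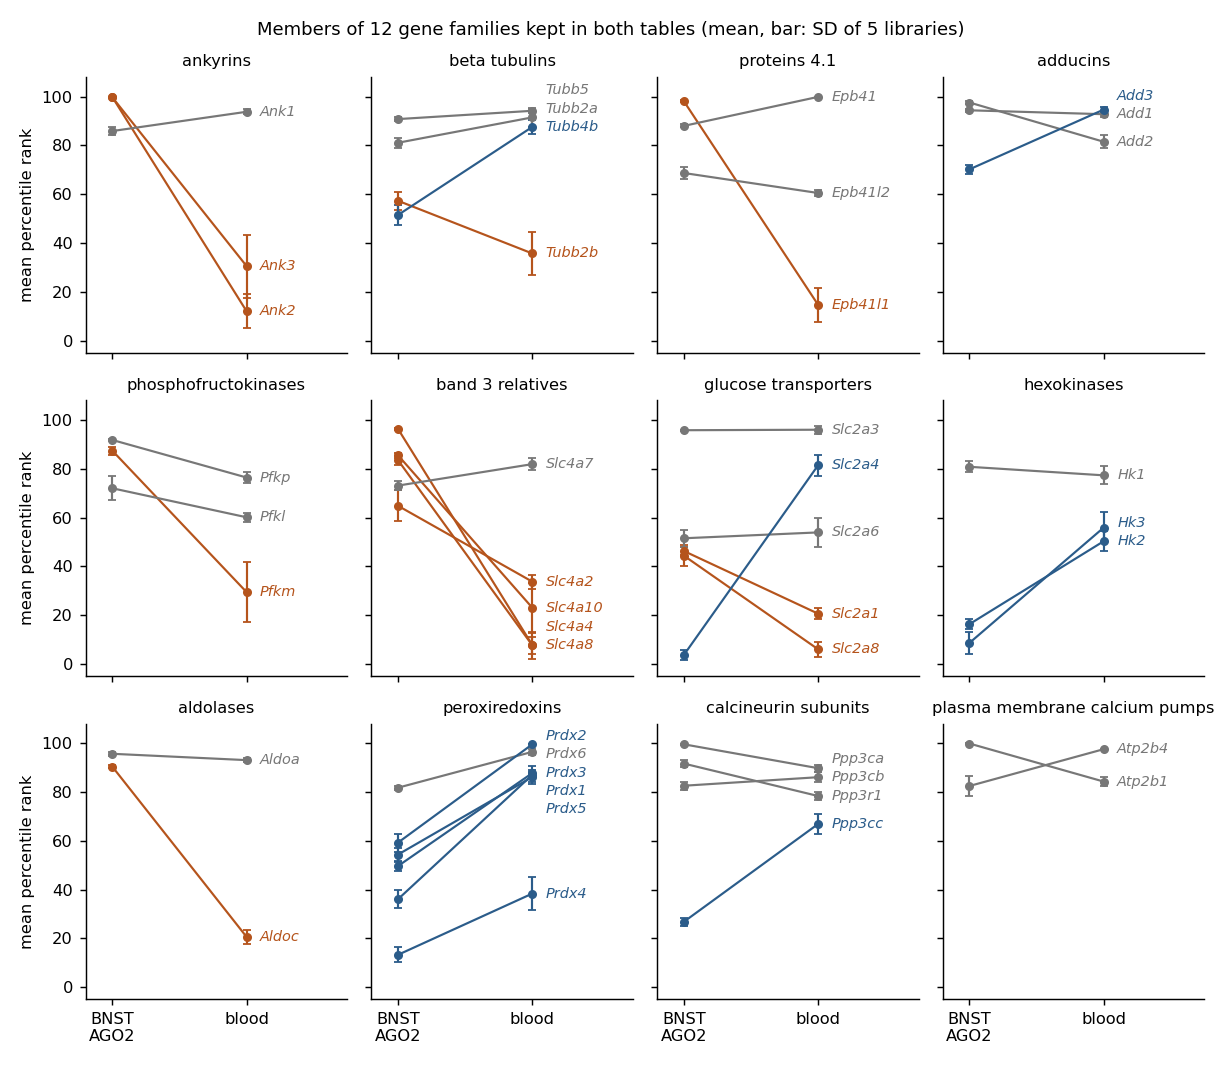
Mean percentile rank of the shared members of 12 gene families in BNST AGO2 and in blood mRNA, with bars of 1 SD over the 5 libraries and colour for called genes (orange higher in AGO2, blue higher in blood, grey not called). Ank2 and Epb41l1 lie at or above 98.2 in AGO2 and at or below 14.7 in blood. Ank1 and Epb41 lie at or above 85.9 in both and were called higher in blood only under alternative settings.

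Genes kept in 1 table only had failed the low-count filter of the other table, so no value was at hand to compare. They held between 16% and 16.9% of the reads of AGO2 libraries and between 4.1% and 4.93% of the reads of blood libraries, and they made up 21 of the 100 highest genes of the AGO2 table and 7 of the 100 highest of the blood table. Of the 5224 in AGO2, 3243 were protein-coding, 264 were long intergenic non-coding RNAs and 146 were small nucleolar RNAs. The highest was Snhg11, a host gene of small nucleolar RNAs that the annotation used here counts as protein-coding, with log2 CPM of 11.87, 12.27, 12.14, 11.85 and 11.63. It was followed by the calcium pump Atp2b2 (mean 10.06), the axonal motor Kif5a (9.96), the vesicle protein Rab3c (9.96) and Gria2 (9.59). Scn4b, Spock2, Map2, Ndrg4 and Grin2b completed the first 10. Of the 1721 in blood, 1055 were protein-coding and 64 were immunoglobulin V segments. High among them were Apol11b (11.43), Slc4a1 (10.97), Isg20 (10.94) and Ppbp (10.62), followed by Nusap1, S100a9, Tubb1 and AI662270.

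Levels of different genes were compared per length, as the CPM of the recovered reads per kilobase of exon. In AGO2 the highest were Mir6236 (42600) and Gm42418 (30500), then mt-Rnr1 (6760), n-R5-8s1 (6610) and mt-Rnr2 (4280). Of these, mt-Rnr1, n-R5-8s1 and mt-Rnr2 are annotated as ribosomal RNAs. Mir6236 is annotated as a miRNA gene and Gm42418 as a long intergenic non-coding RNA. Whether reads of ribosomal RNA were counted in Mir6236 and Gm42418 was not tested. Gm23935, annotated as a miRNA gene, followed at 2240 ± 1750 (SD, n = 5), and the nuclear non-coding RNA Malat1 was at 2160 ± 366. High in blood were mt-Rnr2 (49700), Hbb-bs (43200), Alas2 (40600), Rpph1 (21600) and Rmrp (11600), then Hbb-bt (8120), Ube2l6 (6780), the actin-binding Tmsb4x (4460) and the ferritin light chain Ftl1 (4380). mt-Rnr2 was thus the only gene among the first 10 of both. Some protein-coding genes were high and equal in rank in both groups. Actb was at 99.7 to 99.8 in every library of either group (0.0 points), and the RNA-binding gene Rbm39 (0.0 points), the kinase Hipk1 and the exchange factor Arhgef12 stood at or above percentile 97.3 in all 10 libraries.

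Transcripts that ranked higher in AGO2 were longer. The median exon length of protein-coding genes was 6010 bases among those higher in AGO2, 3770 among those higher in blood and 4810 over all shared genes. The annotated 3′ UTR had a median of 1820 bases in the first class, 928 in the second and 1260 over all. The median GC content of the transcript with the longest annotated 3′ UTR was 51.6%, 48.6% and 49.6% in the same order. The direction of the length difference remained among genes kept in 1 table only, with median exon lengths of 4170 (AGO2) and 2600 (blood). No test was run on these features, and the ranks above rest on reads that were not divided by length.

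Since AGO2 is guided by the seed of a miRNA, bases 2 to 8 from its 5′ end, the seeds with the most reads in the miRNA tables of the control samples were looked up in 3′ UTRs. The 5 highest seeds of each table, summed over miRNAs with a RefSeq entry, gave 8 different seeds. The mature miRNAs below carry them, printed from RefSeq with the seed in capitals, because they show what a target site has to match.

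let-7e-5p: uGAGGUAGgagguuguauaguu
miR-434-3p: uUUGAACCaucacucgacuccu
miR-22-3p: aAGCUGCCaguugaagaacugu
miR-30a-5p: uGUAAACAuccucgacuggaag
miR-92b-3p: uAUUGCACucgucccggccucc
miR-451a: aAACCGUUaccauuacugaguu
miR-21a-5p: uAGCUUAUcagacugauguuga
miR-93-5p: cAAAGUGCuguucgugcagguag

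The let-7 seed took 19.3% ± 0.546 of the miRNA reads in AGO2 and 19.9% ± 3.12 in blood, and the miR-30 seed 5.58% ± 0.49 and 11.4% ± 0.945. The sums leave out miR-30d-5p, which took 2.26% ± 0.22 of the reads in AGO2 and 2.69% ± 0.266 in blood. Further large seeds in AGO2 were those of miR-434-3p (8.38%), miR-22-3p (6.97%) and miR-92b-3p (5.22%). In blood the seed of miR-451a, a red cell miRNA, took 33.3% ± 4.57, against 0.0122% in AGO2, and those of miR-21a-5p and miR-93-5p took 10.1% and 5.98%. Seed matches of 7 bases were counted in the longest annotated 3′ UTR of the 10662 shared genes that have one (93.8%). A match to let-7 was found in 15.7% of the genes higher in AGO2, in 7.38% of those higher in blood and in 10.9% of all shared genes. For all 8 seeds the share of genes with a match was larger among those higher in AGO2. Counted per kilobase of UTR, matches were denser in that class for 5 of the 8 seeds, for instance 0.0816 against 0.0612 for let-7 and 0.116 against 0.101 for miR-93-5p. They were less dense for miR-30 (0.119 against 0.125), miR-434-3p (0.0419 against 0.0442) and miR-21a-5p (0.0504 against 0.0538). For miR-451a the density was 0.0132 against 0.0117. A match is a description of the letters and not a bound site.

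Matches in genes of the largest differences are printed below with 11 bases on each side, the match in capitals, on the strand of the gene (GRCm38). They lie in annotated 3′ UTR exons and show the letters opposite the seeds above. They are examples, with seeds abundant in either table shown for Slc1a2, and the choice bears on no count.

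Ntrk2, miR-92b-3p seed, chr13:59131875-59131903, plus strand: ttataagtaggGTGCAATatgaataattt
Slc1a2, miR-30 seed, chr2:102781633-102781661, plus strand: atatgtttctaTGTTTACttaatctgtta
Slc1a2, miR-451a seed, chr2:102782988-102783016, plus strand: atcctgggtttAACGGTTagcggggaact
Sv2a, miR-22-3p seed, chr3:96194482-96194510, plus strand: gtaagttctgaGGCAGCTtagctggactg
Map1b, miR-22-3p seed, chr13:99423760-99423788, minus strand: aacttctcagtGGCAGCTgtgctcggtca
Cd36, miR-22-3p seed, chr5:17781959-17781987, minus strand: caaaactgcatGGCAGCTttgggcaggag
Cd84, let-7 seed, chr1:171854578-171854606, plus strand: ggaaaagaattCTACCTCaaaggcccaga

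The Ntrk2 match lies at position 3533 of a UTR of 5617 bases, the Slc1a2 match at position 110 of 9250 bases and the Sv2a match at position 577 of 1605 bases. Ntrk2 also holds a match to the miR-21a-5p seed, Slc1a2 and Cd36 one to the miR-93-5p seed, and Map1b one to the miR-451a seed, seeds that were among the highest in blood. The UTR of Cd84, which like Cd36 ranked higher in blood, is 2918 bases long and also holds a miR-30 match.

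The same rule was applied to the defeated animals, whose libraries were used above only where resilient or susceptible samples are named. Among resilient mice, with 5 AGO2 pools and 5 blood samples, 23.7% of genes ranked higher in AGO2 and 23.5% in blood. Of the genes called in controls, 2439 of 2586 (94.3%) were called again on the AGO2 side and 2450 of 2572 (95.3%) on the blood side. Among susceptible mice, with 4 AGO2 pools and 5 blood samples, 23.6% ranked higher in AGO2 and 23.6% in blood, and 2402 (92.9%) and 2420 (94.1%) of the control calls were made again. No gene was called in the opposite direction in either set. The libraries of a tissue share their processing across phenotypes, so the confounding of tissue with capture and kit is the same in all 3 comparisons.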

How the data were processed

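Both mRNA tables hold log2 CPM that the authors made from reads aligned with STAR and counted per gene with HTSeq (genome build GRCm38, versions not printed here), by removing genes with low counts and applying voom of limma to each table on its own. The deposited log2 values of AGO2 and blood were therefore not set against each other as levels. The strand setting of the counting is not given in the sources used here. The filter as described asked for at least 1 CPM in at least 3 AGO2 or 6 blood samples. All 16587 AGO2 genes met it in the 14 AGO2 samples, and 12250 of 13084 blood genes met it in the 15 B6 blood samples (the blood table was made with samples not read here).

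From these values, whole reads were recovered by inverting the voom formula with its offset of 0.5 reads (100.0% of the values were whole within 0.0001). They gave the depth of each library, the share of reads per gene and reads per kilobase of GENCODE exon length. Percentile ranks were computed within each library over the shared genes, with the mean rank for ties, and fitted with lmFit and eBayes of limma 3.58.1 in R 4.3.3 without covariates. The study adjusted its AGO2 mRNA data for cohort with ComBat, whereas the deposited values give whole reads and so hold no such adjustment. The p-values were adjusted by Benjamini-Hochberg over all 11363 genes, and the steps were tested on simulated data. Adjusted p-values refer to the spread between 5 pools and 5 mice. Single genes also had a two-sided exact permutation test over all splits. The miRNA tables (log2 CPM, made by the authors with voom as well) served only to choose seeds, and 670 of 773 AGO2 and 253 of 299 blood names matched a RefSeq mature sequence. The members and gene lists were chosen with earlier results of these data known, so lists are described by counts and medians and support nothing on their own. Genes were named by rule: the 10 highest per length in each group, the 10 largest differences in each direction, the 10 highest kept in 1 table only, the extreme called members of each list and those called against its median, the members of families, and 10 genes high and equal in both. Some genes that meet the rule are not reported here. Other members and genes named in the text were picked as examples after their values were seen. Alternatives were ranks among all genes of each table, ranks per kilobase, quantile-normalized values, a minimum log2 CPM, protein-coding genes only, a smaller minimum difference, trended and robust moderation, and leaving out each library.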

Additional observations from a re-analysis of the deposited data

Results flagged for a closer look

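In each group of 5 libraries, a value was singled out when its gap to the nearest other library exceeded 0.71 of the range of the group, and chance alone does so in about 1 of 20 groups. Of 129 groups checked, 7 (5.43%) were over. In AGO2 pool 3 the 10 highest genes took 11.5% of reads, with the next pool at 10.1%. In 1 blood library each, ribosomal protein genes took 2.98% of reads (next 2.58%), small structural RNAs 1.89% (next 1.45%) and corticosteroid genes 0.089% (next 0.0691%). Kif5a had a log2 CPM of 10.15 in AGO2 pool 3 (next 9.93), and Gria2 had 9.34 in the same pool (next 9.6). Atp5g1 stood at percentile 64.5 in AGO2 pool 1 (next 69.8) and was called without that pool too.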

How the results depend on the processing

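No paired analysis was possible because the AGO2 pools and the blood samples came from different mice and share no replicate label. Leaving out each library in turn gave 2581 to 2614 genes higher in AGO2 and 2554 to 2595 higher in blood. With a minimum of 10 points, 3928 genes ranked higher in blood and 3805 in AGO2. All other alternatives kept both counts within 1.5 times, from 1952 (blood, ranks among all genes of each table) to 3062 (AGO2, same setting). List medians turned direction in 6 cases, none of them a call: choroid plexus to -3.4 points and enolases to 8.5 points among genes with a mean log2 CPM of at least 3, small structural RNAs to 0.1 and beta tubulins to 2.2 points with ranks per kilobase, and glucose transporters to 8.0 points in resilient and 7.0 points in susceptible samples. No named gene that was called changed direction. Calls of named genes were lost in 15 cases of 142 with ranks per kilobase, 7 with quantile-normalized values, 3 with ranks among all genes, 2 in resilient and 3 in susceptible samples, and 4 when a library was left out. Calls were gained in 13 cases with quantile-normalized values, 13 with a minimum of 10 points, 6 with ranks per kilobase, 6 among genes with a mean log2 CPM of at least 3, 4 in susceptible and 2 in resilient samples, 3 when a library was left out, and 1 each among protein-coding genes and with ranks among all genes. Genes with few reads limit the lower end of the ranking: between 21 and 65 genes of the AGO2 table had 0 reads in a pool, and between 54 and 149 genes of the blood table had 0 reads in a library.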
